A study of Caenorhabditis elegans with 9 samples.

Results

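Trehalose is a sugar of 2 joined glucose units, and the genes examined here make it or break it down in the nematode Caenorhabditis elegans. The 8 genes were taken by name: tps-1 and tps-2, which encode trehalose-6-phosphate synthases, gob-1, which encodes trehalose-6-phosphate phosphatase, and tre-1, tre-2, tre-3, tre-4 and tre-5, which encode trehalases or trehalase-like enzymes. Every probe set (a group of array probes summarised to 1 value) whose only gene symbol was one of these names was included. That gave 10 probe sets of the 22548 tested, with 2 each for tps-1 and tre-3 and 1 for each of the other 6 genes. No member was left out and no filter on low signal was applied. The genes lie on 5 chromosomes in the RefSeq gene table (tps-1, gob-1 and tre-4 on X, tps-2 and tre-5 on II, tre-1 on I, tre-2 on IV and tre-3 on V).

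Trehalose is built by joining a glucose unit from UDP-glucose to glucose-6-phosphate, after which a phosphatase removes the phosphate. Trehalases split the sugar back into glucose. In nematodes trehalose is an energy store, and it protects cells from drying and from osmotic stress. UDP-glucose is also the donor for glycogen, and glucose-6-phosphate leads by way of fructose-6-phosphate to the hexosamine pathway, whose end product UDP-GlcNAc is the donor for O-GlcNAc.

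Affymetrix arrays measured RNA of whole first-stage (L1) larvae in 3 genotypes with 3 arrays each, labelled as biological replicates 1 to 3. These were wild type, an ogt-1(ok430) strain, which lacks the transferase that puts O-GlcNAc onto proteins, and an oga-1(ok1207) strain, which lacks the O-GlcNAcase that removes it. Both alleles are described in the labels as loss of the enzyme and each genotype is a single strain. All larvae, wild type included, had hatched in sterile buffer without food, were collected after 48 h, and fed on OP50 bacteria for 3 h before RNA was taken. The labels do not say whether the replicates were grown in separate cultures beyond calling them biological. The p-values therefore set each difference only against the spread between these samples.

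Values are deposited log2 signals, so a difference of 1 is a 2-fold change. Differences were tested with limma over all probe sets and called at a Benjamini-Hochberg adjusted p under 0.05. Across probe sets, r was 0.992 to 0.997 within a genotype and 0.985 to 0.995 between genotypes. Of all arrays, 3 stood apart: ogt-1 mutant 1 was at the far end of the first principal component (33.3) and had the highest spike-in signal (10.77, others 10.09 to 10.39), while the second component (19.7% of the variance) ran from oga-1 mutant 3 (-27.7) to wild type 1 (24.6). As a check of the labels, the oga-1 gene itself was lower in the oga-1 mutant at all 3 of its probe sets (-0.30, -0.58 and -0.75). Of these, 1 was called (-0.75 ± 0.10 SE, limma adjusted p = 0.0181). The ogt-1 gene showed no decrease in its own mutant, so directions for that strain rest on its label. Both of its probe sets were higher there (0.48 and 0.70), and 1 was called (0.70 ± 0.11, limma adjusted p = 0.0141). Removing wild type 2, wild type 3 or ogt-1 mutant 1 ended the ogt-1 call (limma adjusted p = 0.0527 to 0.0759). Removing wild type 2, wild type 3, oga-1 mutant 1 or oga-1 mutant 2 ended the oga-1 call (limma adjusted p = 0.0595 to 0.112). Markers of adult yolk and eggshell and of early embryos were mostly dim. Of their measured genes, 3 of 10 and 1 of 6 lay above 7.45, the median signal of the array. Of the larval tissue lists, 7 of 7 intestine, 4 of 4 neuron, 3 of 4 body wall muscle and 2 of 5 epidermis markers lay above it. Signals of different probe sets are not compared with each other as levels of RNA, since each has its own probes.

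**Figure D1:**
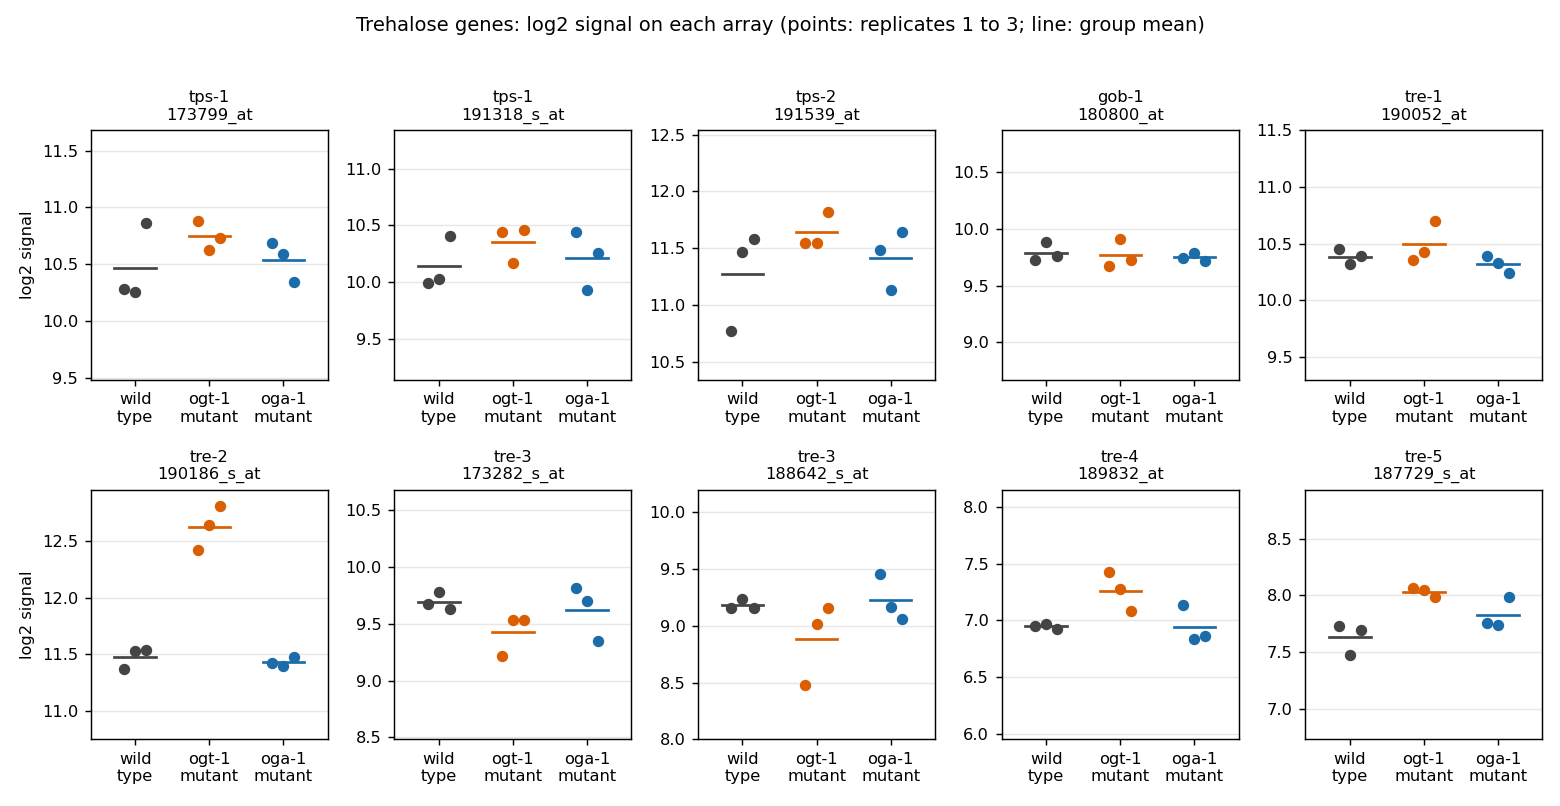
Log2 signal of the 10 probe sets of trehalose genes on each of the 9 arrays, 1 panel per probe set, with points for replicates 1 to 3 of each genotype and a line at the group mean. Every panel spans the same height in log2 units. The 3 ogt-1 mutant arrays of tre-2 (12.42 to 12.81) stand above the other 6 (11.37 to 11.54).

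In the ogt-1 mutant a single trehalose gene was called changed, the trehalase gene tre-2, and it rose 2.2-fold. The synthesis genes tps-1, tps-2 and gob-1 and the other 4 trehalase genes did not pass the test. In the oga-1 mutant none of the 10 probe sets was called. Of the 10 probe sets 1 was called in the ogt-1 mutant against wild type, higher, where 2.59% of all probe sets were called in either direction and 1.19% were called higher. An unadjusted p under 0.05 was found at 3 of the 10 (15.8% of all). With the replicate number as a block 1034 of all probe sets were called in place of 584, and 1 of the 10, tre-2 again. In the oga-1 mutant against wild type 0 of 10 were called by limma and 0 had an unadjusted p under 0.05, against 0.497% called and 11.5% with such a p among all probe sets. In the ogt-1 mutant against the oga-1 mutant 1 of 10 was called, again tre-2 and higher, against 2.89% of all in either direction and 1.32% higher, and 2 had an unadjusted p under 0.05 (20.5% of all). The block gave 1128 calls over all in place of 652, again with 1 of the 10.

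The synthase gene tps-1 was measured by probe sets 173799_at and 191318_s_at, of which the second carries a suffix for possible cross-hybridisation with related sequences. At 173799_at the log2 signal was 10.28, 10.25 and 10.86 on the wild-type arrays, 10.88, 10.62 and 10.73 on the ogt-1 mutant arrays and 10.69, 10.59 and 10.34 on the oga-1 mutant arrays. At 191318_s_at it was 9.997, 10.03 and 10.41 in wild type, 10.44, 10.17 and 10.46 in the ogt-1 mutant and 10.44, 9.93 and 10.26 in the oga-1 mutant. Wild type 3 was the highest wild-type array at both probe sets and overlapped both mutants. The log2 difference of the ogt-1 mutant from wild type was 0.28 ± 0.16 SE at 173799_at (n = 3, 95% confidence interval -0.087 to 0.65, limma adjusted p = 0.474) and 0.21 ± 0.16 at 191318_s_at (limma adjusted p = 0.584). The 173799_at value was 0.17 without wild type 2, 0.48 without wild type 3 and 0.031 after fitting a covariate for RNA quality (the control gap, 3-prime minus 5-prime signal of control probe sets). At 191318_s_at it was 0.14 without wild type 1, 0.35 without wild type 3 and 0.093 with that covariate. The oga-1 mutant differed from wild type by 0.076 and 0.065 at these probe sets.

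The second synthase gene, tps-2 (191539_at, no suffix), had the most uneven replicates of the group. Its log2 signal was 10.77, 11.47 and 11.58 in wild type, 11.55, 11.55 and 11.82 in the ogt-1 mutant and 11.48, 11.13 and 11.64 in the oga-1 mutant. Wild type 1 lay below all other arrays, and the 3 groups overlapped. The ogt-1 mutant differed from wild type by 0.37 ± 0.21 (n = 3, interval -0.096 to 0.83, limma adjusted p = 0.453), and by 0.12 without wild type 1. The oga-1 mutant differed by 0.14 ± 0.21 (limma adjusted p = 0.827), and by -0.11 without wild type 1. The residual SD of tps-2 was 0.309, at the 94.9th percentile of all probe sets tested, and those of tps-1 were 0.237 and 0.221 (87.5th and 84.3rd percentiles). In the RefSeq gene table tps-2 overlaps pugs-2 and arl-3, whose own probe sets gave -0.24 (limma adjusted p = 0.613) and 0.44 (limma adjusted p = 0.048) in the ogt-1 mutant. The arl-3 call was lost when any array other than ogt-1 mutant 3 was removed (limma adjusted p = 0.0657 to 0.151).

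The phosphatase gene gob-1 (180800_at, no suffix), whose product completes trehalose synthesis and whose loss is known in this worm to block the gut of larvae, gave the steadiest signal. It measured 9.73, 9.88 and 9.76 in wild type, 9.67, 9.91 and 9.72 in the ogt-1 mutant and 9.75, 9.79 and 9.72 in the oga-1 mutant. All 9 arrays lay within 0.237 of each other, and the groups overlapped fully. The difference from wild type was -0.022 in the ogt-1 mutant (95% interval -0.22 to 0.17) and -0.038 in the oga-1 mutant (-0.23 to 0.16), which leaves room for a change of up to about these bounds. Its residual SD of 0.0888 stood at the 18.2th percentile of all probe sets.

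Among the breakdown genes, tre-2 (190186_s_at, marked for cross-hybridisation) measured 11.37, 11.53 and 11.54 in wild type, 12.42, 12.64 and 12.81 in the ogt-1 mutant and 11.42, 11.40 and 11.48 in the oga-1 mutant. Every ogt-1 mutant array was higher than each of the other 6, with a gap of 0.88 to the highest wild-type array. The rise over wild type was 1.14 ± 0.11 SE (2.21-fold, n = 3, 95% interval 0.91 to 1.38, limma adjusted p = 0.000811), the 22nd smallest p of all probe sets tested and larger than the change of 99.6% of them. The oga-1 mutant differed from wild type by -0.048 ± 0.11 (interval -0.28 to 0.19, limma adjusted p = 0.894). The direct comparison of the mutants, which tests whether their changes differ, gave 1.19 ± 0.11 (2.28-fold, limma adjusted p = 0.000587).

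The rise of tre-2 in the ogt-1 mutant was 1.05 to 1.24 when each of the 9 arrays was left out in turn (limma adjusted p = 0.00198 to 0.00678), and it was called each time. Without the 3 arrays that stood apart it was 1.19 (limma adjusted p = 0.00978). Other measures also set the ogt-1 mutant arrays apart. The gap between 3-prime and 5-prime signal of the catalase control was 1.32 to 2.09 on the ogt-1 mutant arrays. It was 0.721 to 1.12 for wild type and 0.979 to 1.13 for oga-1 mutants. With the mean gap of the actin, GAPDH and ubiquitin controls as a covariate the rise over wild type was 1.13 (limma adjusted p = 0.0291) and the difference from the oga-1 mutant 1.17, no longer called (limma adjusted p = 0.163). The 2 mutants' arrays do not overlap in that covariate (1.31 to 1.51 and 1.16 to 1.28). Those of wild type (1.27 to 1.35) overlap with both. The catalase gap was not part of the covariate, and a fit with it was not tested.

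The larvae were taken whole, so fewer cells of a type and less RNA per cell cannot be told apart. The mean log2 signal of 7 intestine markers was 10.79 to 11.10 on the ogt-1 mutant arrays, below wild type (11.19 to 11.34), and 11.02 to 11.33 on the oga-1 mutant arrays. Of these 7 markers, 1 was called in the ogt-1 mutant, lower (elt-7, a GATA transcription factor of the gut, -0.77 ± 0.17, limma adjusted p = 0.0481). The other 6 were not called, where 2.59% of all probe sets were. Among them elt-2 came nearest (-0.66 ± 0.15, limma adjusted p = 0.0535), and its arrays did not overlap with wild type (21% of all did not). It was also lower in the oga-1 mutant (-0.49 ± 0.15, limma adjusted p = 0.2645), again without overlap (16.1% of all). Between the mutants elt-2 differed by -0.17 ± 0.15 (limma adjusted p = 0.551). In the ogt-1 mutant the median of the 7 was -0.28, beside 0.0023 over all probe sets, and asp-1 alone was not lower (0.0044). The elt-7 call was lost when any array other than wild type 1 or ogt-1 mutant 2 was removed (limma adjusted p = 0.072 to 0.177). None of the 5 epidermis, 4 body wall muscle or 4 neuron markers was called against wild type. The medians of those lists in the ogt-1 mutant were -0.054, 0.17 and -0.051. Epidermis changes there ran from -0.49 (che-14, limma adjusted p = 0.0627) to 0.044. At che-14 the oga-1 mutant was also lower (-0.34, limma adjusted p = 0.3195). The part of these shifts in the trehalose gene signals was not tested.

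The trehalase gene tre-5 (187729_s_at, marked) came nearest to the threshold among the rest. It measured 7.73, 7.47 and 7.69 in wild type, 8.06, 8.05 and 7.98 in the ogt-1 mutant and 7.76, 7.74 and 7.99 in the oga-1 mutant. All ogt-1 mutant arrays lay above the wild-type arrays, by a gap of 0.254, while oga-1 mutant 3 reached the ogt-1 mutant level. The difference of the ogt-1 mutant from wild type was 0.40 ± 0.10 (1.32-fold, interval 0.18 to 0.62, unadjusted p = 0.0024 and adjusted p = 0.0709 by limma, n = 3). That of the oga-1 mutant was 0.20 ± 0.10 (interval -0.027 to 0.42, limma adjusted p = 0.487), and its arrays were also above wild type, by 0.0045. That value was 0.12 without wild type 2 and 0.12 without oga-1 mutant 3. The direct difference between the mutants was 0.21 ± 0.10 (limma adjusted p = 0.275). In the RefSeq gene table tre-5 overlaps sptl-1, a serine palmitoyltransferase gene, whose own probe set fell by 0.58 in the ogt-1 mutant (limma adjusted p = 0.0181), a call that ended on removing wild type 2, ogt-1 mutant 1 or ogt-1 mutant 3 (limma adjusted p = 0.0656 to 0.0965).

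The trehalase gene tre-4 (189832_at, no suffix) was the dimmest of the 10, with a mean over all arrays of 7.05, below the median of all probe set means. It measured 6.95, 6.97 and 6.93 in wild type, 7.42, 7.28 and 7.08 in the ogt-1 mutant and 7.14, 6.83 and 6.86 in the oga-1 mutant. All ogt-1 mutant arrays lay above the wild-type arrays and overlapped those of the oga-1 mutant. The difference from wild type was 0.31 ± 0.11 in the ogt-1 mutant (1.24-fold, unadjusted p = 0.0178, limma adjusted p = 0.196, n = 3) and -0.0039 ± 0.11 in the oga-1 mutant (interval -0.25 to 0.24). Background was not assessed, and tre-4 overlaps efn-3 in the RefSeq gene table, whose probe set gave 0.28 in the ogt-1 mutant (limma adjusted p = 0.446).

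For tre-3 both probe sets, 173282_s_at and 188642_s_at, are marked. At 173282_s_at the signal was 9.67, 9.78 and 9.63 in wild type, 9.22, 9.54 and 9.53 in the ogt-1 mutant and 9.82, 9.70 and 9.35 in the oga-1 mutant. At 188642_s_at it was 9.16, 9.24 and 9.16 in wild type, 8.48, 9.02 and 9.16 in the ogt-1 mutant and 9.46, 9.17 and 9.06 in the oga-1 mutant. Both probe sets had their lowest mean in the ogt-1 mutant, with ogt-1 mutant 1 the lowest array, and overlap with wild type was seen at the second. The differences from wild type were -0.27 ± 0.13 (limma adjusted p = 0.385) and -0.30 ± 0.17 (limma adjusted p = 0.442), and without ogt-1 mutant 1 they were -0.16 and -0.097. In the oga-1 mutant they were -0.070 and 0.042.

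The remaining trehalase gene, tre-1 (190052_at, no suffix), measured 10.45, 10.32 and 10.39 in wild type, 10.36, 10.43 and 10.70 in the ogt-1 mutant and 10.39, 10.33 and 10.24 in the oga-1 mutant. All groups overlapped, and ogt-1 mutant 3 was the one array above 10.5. The difference from wild type was 0.11 ± 0.10 in the ogt-1 mutant (limma adjusted p = 0.685) and -0.071 ± 0.10 in the oga-1 mutant (limma adjusted p = 0.826). Removing ogt-1 mutant 3 took the first to 0.0083, removing ogt-1 mutant 1 took it to 0.18, and fitting the control gap took it to 0.015. The second was -0.031 without oga-1 mutant 3 and -0.040 without wild type 1.

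**Figure D2:**
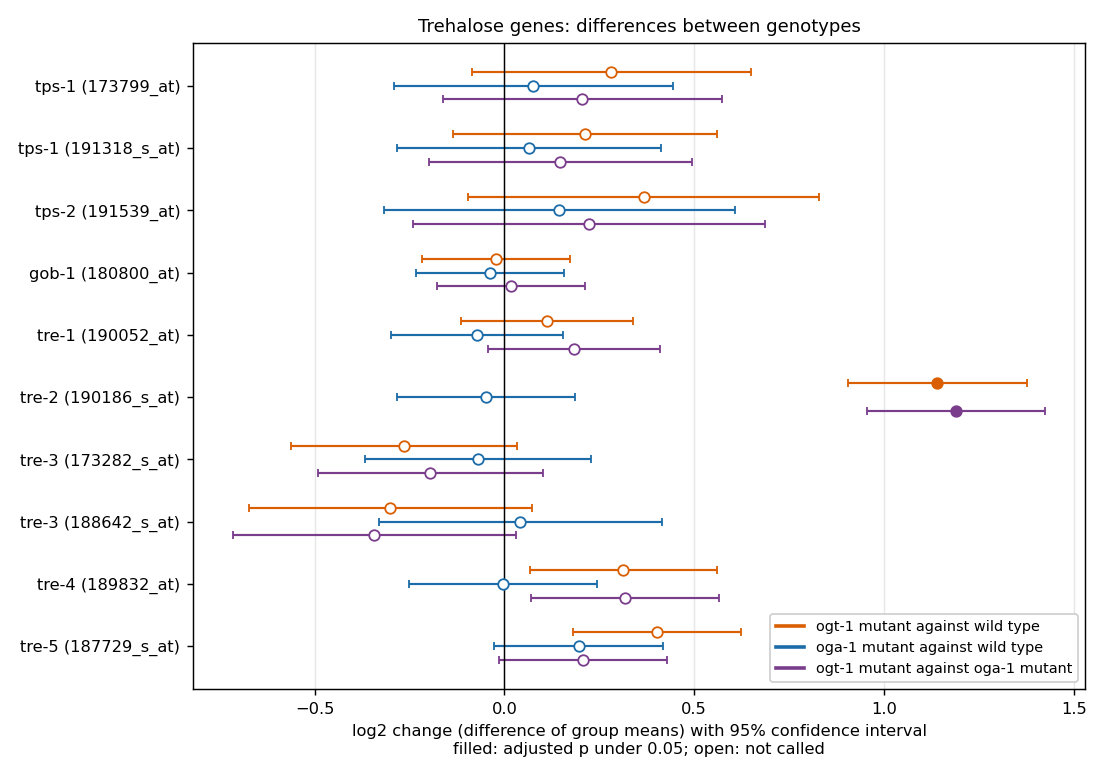
Log2 change of each trehalose gene probe set in the 3 comparisons between genotypes, with the 95% confidence interval of the limma model. Filled points were called at an adjusted p under 0.05 and open points were not. The intervals of tre-2 in both comparisons that hold the ogt-1 mutant begin at 0.91 and 0.95, above the upper bound of every trehalase interval other than its own (at most 0.62).

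Of the 5 trehalase genes, 1 was called in the ogt-1 mutant against wild type, higher. Over all probe sets 2.59% were called there and 1.19% were called higher. The interval of tre-2 against wild type (0.91 to 1.38) lay wholly above those of tre-5 (0.18 to 0.62), tre-4 (0.067 to 0.56), tre-1 (-0.12 to 0.34) and tre-3 (-0.56 to 0.032 and -0.67 to 0.071). Over the 10 probe sets the median size of change was 0.29 in the ogt-1 mutant against wild type, beside 0.11 over all probe sets. Of the 10 differences 7 were positive, and 9 were not called. Residual SDs of the 10 ran from the 18.2th (gob-1) to the 94.9th percentile (tps-2) of all probe sets. These median sizes were not adjusted for that spread. In the oga-1 mutant the median size was 0.067, beside 0.10 over all, with 5 positive and 5 negative. Between the mutants it was 0.21, beside 0.13. The comparisons of both mutants share the 3 wild-type arrays, and the paired probe sets of tps-1 and tre-3 each stand for 1 gene.

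The arrays of 2 genotypes can also be compared by whether they overlap. Against wild type the ogt-1 mutant arrays did not overlap at 4 of the 10 probe sets (tre-2, tre-4 and tre-5 higher, 173282_s_at of tre-3 lower), where 21% of all probe sets did not overlap, 9.98% higher and 11% lower. The oga-1 mutant arrays did not overlap with wild type at 1 (tre-5, higher), against 16.1% of all and 9.41% higher. The mutants did not overlap with each other at 1 (tre-2, higher in the ogt-1 mutant), against 22.9% and 10.3% higher. The synthesis genes overlapped in every comparison.

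Genes of the pathways next to trehalose were examined as lists, with the brightest probe set standing for each gene. Of 7 genes that supply glucose-6-phosphate and UDP-glucose, 1 rose in the ogt-1 mutant, hxk-1, which encodes a hexokinase, the enzyme that makes glucose-6-phosphate, and 6 were not called. Over all probe sets 2.59% were called, and 1.19% were called higher. The median of the 7 was -0.088, beside 0.0023 over all probe sets. At 173814_at, which carries no suffix, hxk-1 measured 11.08, 11.30 and 11.17 in wild type, 12.08, 12.13 and 12.07 in the ogt-1 mutant and 11.36, 11.29 and 11.08 in the oga-1 mutant. All ogt-1 mutant arrays lay above the other 6. The rise over wild type was 0.91 ± 0.095 (1.88-fold, n = 3, limma adjusted p = 0.00177) and was called without each array in turn (0.86 to 0.97). Over all the alternatives run it stayed called, though barely in the weakest (limma adjusted p = 0.04999).

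The second hxk-1 probe set, 188584_s_at (marked), rose by 0.70 ± 0.11 (limma adjusted p = 0.0118). It was called without each array in turn, but not with the control gap as a covariate (0.81, limma adjusted p = 0.0939) or without the 3 arrays that stood apart (0.73, limma adjusted p = 0.062). Against the oga-1 mutant the hxk-1 probe sets differed by 0.85 and 0.68, both called, but neither was once that covariate was fitted (0.83 and 0.86, limma adjusted p = 0.361 and 0.392). In the oga-1 mutant 0 of the 7 were called, where 0.497% of all probe sets were. Those with the smallest p were hxk-3 (-0.15 ± 0.098, limma adjusted p = 0.576) and pgm-1, a phosphoglucomutase gene (0.19 ± 0.20, 0.741).

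**Figure D3:**
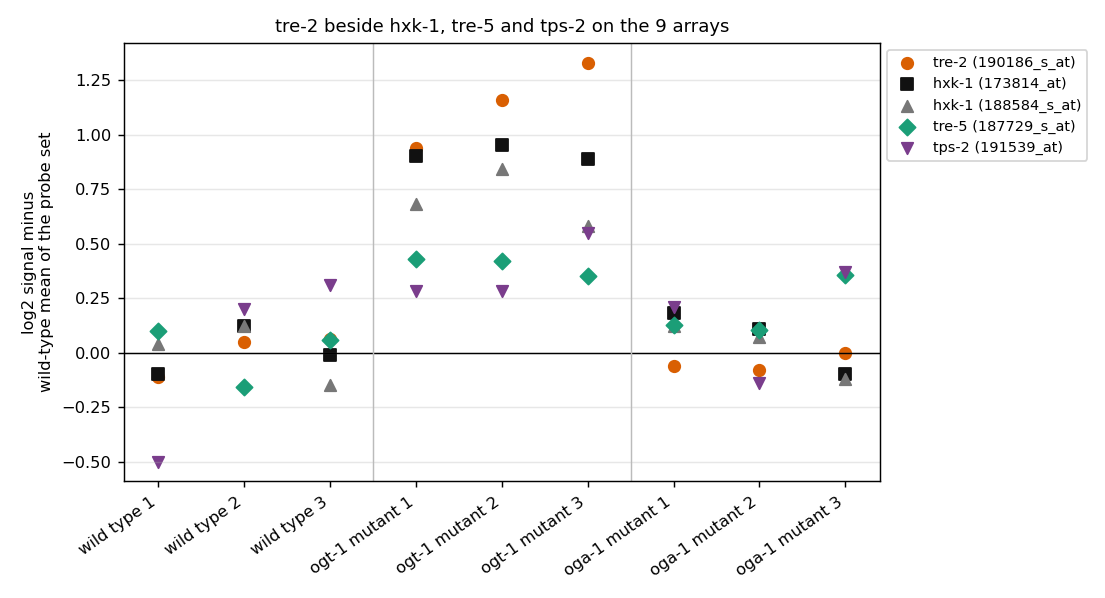
Log2 signal of tre-2, both probe sets of hxk-1, tre-5 and tps-2 on the 9 arrays, each minus the wild-type mean of its own probe set. On the 3 ogt-1 mutant arrays tre-2 and both hxk-1 probe sets lie above all their other values, while tps-2 overlaps between genotypes.

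Of 10 listed glycogen genes 9 were measured, and 0 were called by limma against wild type in either mutant, where 2.59% (ogt-1 mutant) and 0.497% (oga-1 mutant) of all probe sets were. The glycogen median was -0.15 in the ogt-1 mutant, with 0.15 in the oga-1 mutant. Against wild type in the ogt-1 mutant the smallest p values were those of gyg-2, a glycogenin gene (-0.51 ± 0.14, limma adjusted p = 0.0969), and aagr-1, of the acid alpha-glucosidase-related genes (-0.54 ± 0.15, limma adjusted p = 0.103). In the oga-1 mutant they were those of aagr-4 (0.60 ± 0.21, limma adjusted p = 0.326) and gyg-1 (0.44 ± 0.21, limma adjusted p = 0.465). Between the mutants 1 of the 9 was called, where 2.89% of all probe sets were. It was gyg-2, lower in the ogt-1 mutant (-0.66 ± 0.14, limma adjusted p = 0.0408). That call was lost when any array other than wild type 1 or oga-1 mutant 2 was removed (limma adjusted p = 0.0549 to 0.12). That gyg-2 difference was -0.41 without the 3 arrays that stood apart and -0.31 when the control gap was fitted.

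Glycerol is another protective solute of this worm. Neither gene of glycerol-3-phosphate dehydrogenase was called in either mutant against wild type. Of all probe sets 2.59% (ogt-1 mutant) and 0.497% (oga-1 mutant) were called. In the ogt-1 mutant gpdh-1 gave 0.11 and gpdh-2 gave 0.0058, and in the oga-1 mutant they gave 0.13 and 0.20.

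**Figure D4:**
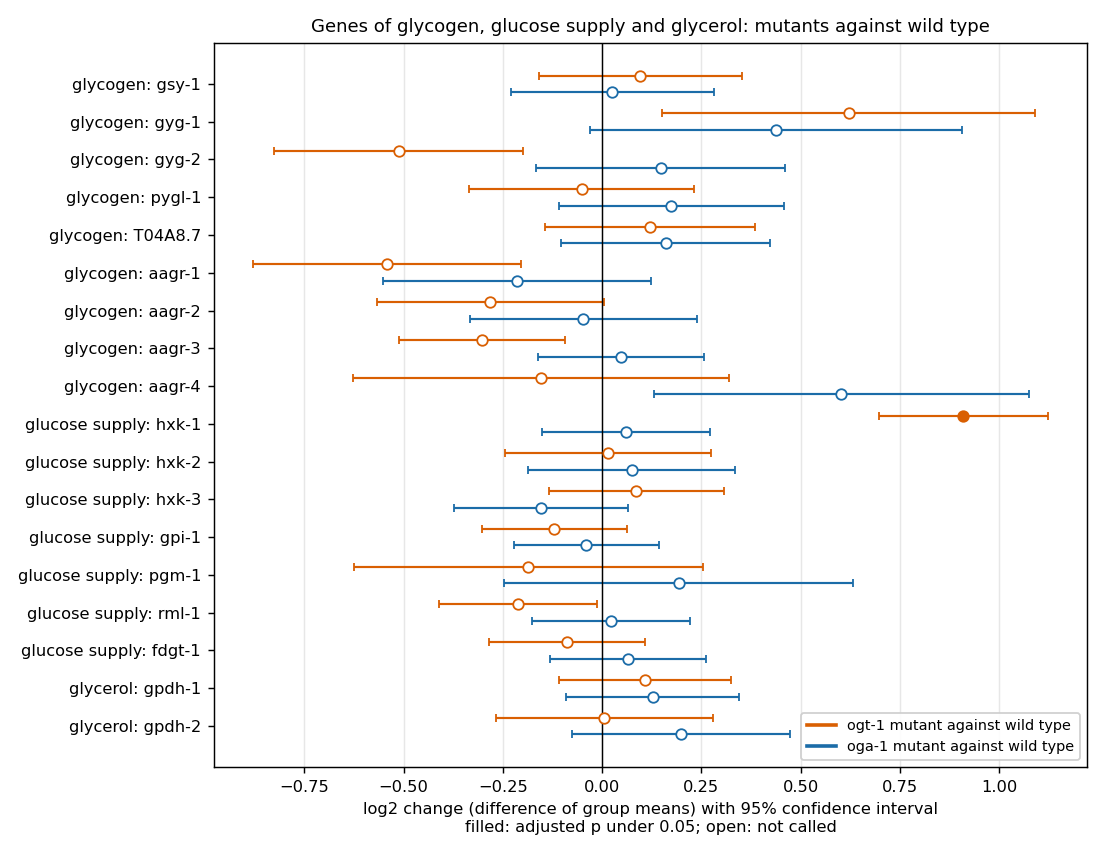
Log2 change of genes of glycogen, glucose supply and glycerol in each mutant against wild type, with 95% confidence intervals of the limma model and 1 probe set per gene. The only filled point, which marks an adjusted p under 0.05, is hxk-1 in the ogt-1 mutant at 0.91.

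Likeness of pattern was measured as the root mean square distance, in log2 units, between the 9 array values of 2 probe sets after each was centred on its own mean. For tps-2, the trehalose probe set without suffix whose genotype means spread most, the 5 closest of 14962 probe sets were F09F7.6 (0.0998), spg-20 (0.116), F43G6.3 (0.134), F20D1.3 (0.135) and nhr-17 (0.135), beside a median distance of 0.325. All 5 were lowest on wild type 1, as tps-2 was, and none was called in the ogt-1 mutant against wild type (limma adjusted p = 0.14 to 0.434). They were picked for likeness on these same arrays, so a shared pattern follows from the choice.

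For tre-2, added after its values were seen, the 5 closest of 14963 probe sets were K08E7.5 (0.158), K11H12.3 (0.166), gst-14 (0.177), hxk-1 (0.193) and slc-36.4 (0.194), beside a median of 0.583. They rose in the ogt-1 mutant by 0.91 to 1.13 and gave -0.24 to 0.060 in the oga-1 mutant, where none was called. Here too the likeness to tre-2 follows from how they were picked.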

How the data were processed

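Each array has 1 deposited log2 value per probe set, which the authors had brought to a common scale (array medians 7.42 to 7.47). MAS5, RMA and Partek appear in the submitters' processing notes with neither version nor role. The summary method and log base are not stated in any source read, and log2 was taken from the range (3.74 to 14.9). A change shared by most genes could not be seen. Of 22625 probe sets, 77 controls were left out of the tests. Symbols come from the platform annotation, and overlaps and chromosomes from the RefSeq table of WBcel235.

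The fit used limma 3.58.1 in R 4.3.3 (lmFit, eBayes) on all 9 arrays with a coefficient per genotype (6 residual and 3.92 prior degrees of freedom), and p-values were adjusted over 22548 probe sets. The number of arrays limits precision. The code was tested on simulated data. Members, lists and tests were chosen with earlier results of these data known. All 8 genes are named with every probe set. From the lists, up to 4 called genes, or the 2 with the smallest p where none was called, are named per comparison. The genes nearest tps-2 follow a fixed rule, while elt-7, elt-2, asp-1, che-14, the overlapping genes and those nearest tre-2 were named after values were seen. Alternatives were the replicate number as a block, each array left out, a filter on low signal, quantile normalization, 2 genotypes per fit, trend and robust moderation, a control-gap covariate, the mean over probe sets of a gene, and, chosen after seeing the data, 3 arrays left out.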

Additional observations from a re-analysis of the deposited data

Results flagged for a closer look

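The change of tre-2 differed between the mutants by the direct test of that difference. It was 1.19 ± 0.11 higher in the ogt-1 mutant than in the oga-1 mutant (limma adjusted p = 0.000587, higher in 3 of 3 ogt-1 mutant arrays), with 1.14 against wild type in the first and -0.048 in the second. No other trehalose probe set was called in that test. With the control gap fitted the tre-2 difference was no longer called (limma adjusted p = 0.163), and the mutants' arrays do not overlap in that gap.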

How the results depend on the processing

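Leaving out each array in turn gave 1.05 to 1.24 for tre-2 in the ogt-1 mutant against wild type and 1.095 to 1.29 against the oga-1 mutant, called each time. Of the counts of trehalose probe sets called, 1 moved past 1.5 times: 0 were called between the mutants with the control gap fitted, where 9 of all probe sets were called, and the mutants' arrays do not overlap in that gap. Calls over all probe sets ranged from 49 to 1034 (ogt-1 mutant against wild type), 9 to 163 (oga-1 mutant against wild type) and 9 to 1128 (between the mutants). Differences that changed sign were uncalled both ways, and the cause was not tested. Fitting the control gap gave 0.069 for gob-1 in the ogt-1 mutant, and -0.20 and -0.044 for tps-1 between the mutants. Without the 3 arrays that stood apart, an alternative chosen after seeing the data, the oga-1 mutant gave -0.034 (marked tps-1 probe set), -0.22 (tps-2), 0.0005 (tre-1), 0.055 (tre-3) and 0.037 (tre-4). The mean of both tre-3 probe sets was -0.014 in the oga-1 mutant, and gob-1 was -0.015 between the mutants after quantile normalization. Leaving out arrays, the oga-1 mutant against wild type spanned -0.031 to 0.27 and -0.052 to 0.21 (tps-1), -0.11 to 0.30 (tps-2), -0.070 to 0.0088 (gob-1), -0.17 to 0.066 and -0.072 to 0.13 (tre-3) and -0.10 to 0.052 (tre-4). For gob-1 it was -0.092 to 0.027 in the ogt-1 mutant and -0.054 to 0.065 between the mutants. Signal over background was not assessed, and the number of arrays limits precision.

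With the replicate number as a block, tre-2 was 1.14 (limma adjusted p = 0.000817) against wild type and 1.19 (0.000533) against the oga-1 mutant. The block gave 1, 0 and 1 trehalose probe sets called, with 1034, 163 and 1128 over all, and changed no call of a gene named here for which it was run. Whether the numbers mark a shared batch is not given in the labels. Same-numbered arrays correlated in their deviations with r of 0.1004 to 0.303 between wild type and the ogt-1 mutant and 0.107 to 0.322 between the mutants, while 1 of the 3 pairs of wild type and oga-1 mutant was at 0.0052. Arrays of different number gave -0.252 to 0.0713. For 7 of 9 arrays the best-correlated array in both other genotypes was the one of their own number.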
